A study of Mus musculus with 7 samples.

Results

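The semaphorins, plexins and neuropilins are the ligands and receptors of one guidance system. The 31 genes described here were taken by name from the deposited expression table: every semaphorin of classes 3 to 7, every plexin and both neuropilins. They comprise 20 semaphorins, 9 plexins and 2 neuropilins among the 54532 genes in the table. All 31 passed the filter on low counts, although Sema3g and Sema5b had 8 counts or fewer in every mature neuron library.

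Messenger RNA was sequenced from pools of cells purified by fluorescence-activated cell sorting from the olfactory epithelia of young mice. OMP-GFP mice gave mature olfactory sensory neurons, with 3 libraries from P2, P7 and P16 (postnatal days 2, 7 and 16). Neurog1-GFP mice gave intermediate progenitors, with 4 libraries from P3, P7, P9 and P16. Both lines are named for a green fluorescent protein (GFP) reporter, and population and mouse line coincide and cannot be told apart. No further treatment or allele is named in the labels, and no label says whether libraries came from separate animals. Within a population every library is of a different age, so age is part of the replicate spread, and the tests measure only how these libraries vary.

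Library totals over genes ran from 24203965 to 25930727 counts. Neurog1, for which the progenitor line is named, stood between 1.11 and 2.08 CPM (counts scaled to a common library size) in mature neurons and between 328 and 825 CPM in progenitors. Omp, for which the mature neuron line is named, overlapped between the populations, with 1490 to 2380 CPM in mature neurons, against 1660 to 3020 CPM in progenitors (log2 fold -0.41, not called). The summed level of 10 mature neuron markers was 17800 to 25500 CPM in mature neurons, against 6280 to 9450 CPM in progenitors, so transcripts of mature neurons were present in both. The P16 mature neuron library had the highest sums of leukocyte markers (112 CPM, against 9.67 to 38.3 CPM in the other 6 libraries) and of olfactory ensheathing glia markers (58.4 CPM, against 6.04 to 31.7 CPM). In such bulk samples fewer cells of a type and less RNA per cell cannot be told apart.

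As background, semaphorins are secreted or membrane-bound cues that steer growing axons, mostly by repulsion, and plexins are their signalling receptors. Class 3 semaphorins are secreted, and most of them bind a neuropilin that pairs with an A-type plexin. Classes 4 to 6 span the membrane and mostly bind plexins directly, while Sema7a is held by a lipid anchor. In the mouse olfactory system, axons of sensory neurons carry graded amounts of Nrp1, Nrp2, Sema3a and Sema3f, which take part in sorting them on the way to the olfactory bulb. Sema7a on these axons acts with Plxnc1 on dendrites of bulb neurons when glomerular synapses form.

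Mature neurons held more RNA of Sema7a, Sema3e, Sema4d, Plxna3, Plxna4 and Plxnb3 than progenitors. They held less of both neuropilins, of Plxnb1, Plxnb2, Plxnc1, Plxnd1 and Plxna2, and of 9 semaphorins, of which Sema6c, Sema4c and Sema3a were the most abundant in progenitors. The calls of Sema7a, Plxnb3, Plxna2, Sema3c, Sema3g and Sema6c were lost under some alternative processing or with some single libraries left out. In all, 22 of the 31 genes were called (edgeR quasi-likelihood test, adjusted p under 0.05 over all genes tested), which is 71% of them, and 58.8% of all 17975 genes tested were called. The 6 higher genes are 19.4% of the family, against 28.8% of all genes, and the 16 lower genes are 51.6%, against 30.0% of all genes. Sema3c, Sema3g and Sema5b are among these 16 and passed the filter only through the progenitors, where they are high. Their calls are kept in the counts given here, with this limit. The median log2 fold was -0.45 over the 31 genes and 0.01 over all genes tested. Called differences of at least 2-fold were seen for 12 of the 31 genes, or 38.7%, with 26.4% of all genes tested reaching that size. For 21 of the 31 genes the CPM ranges of the populations did not overlap (67.7%, against 61.4% of all genes tested). Other cell markers moved with the populations as well. The sum of 8 immature neuron markers was 2410 to 3050 CPM in mature neurons, against 5850 to 6800 CPM in progenitors, and that of 8 sustentacular cell markers 3660 to 3920 CPM in mature neurons, against 1950 to 2850 CPM in progenitors. Of the leukocyte markers 8 of 10 rose and of the ensheathing glia markers 5 of 6 tested. The part of these cells in the results was not tested.

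**Figure D1:**
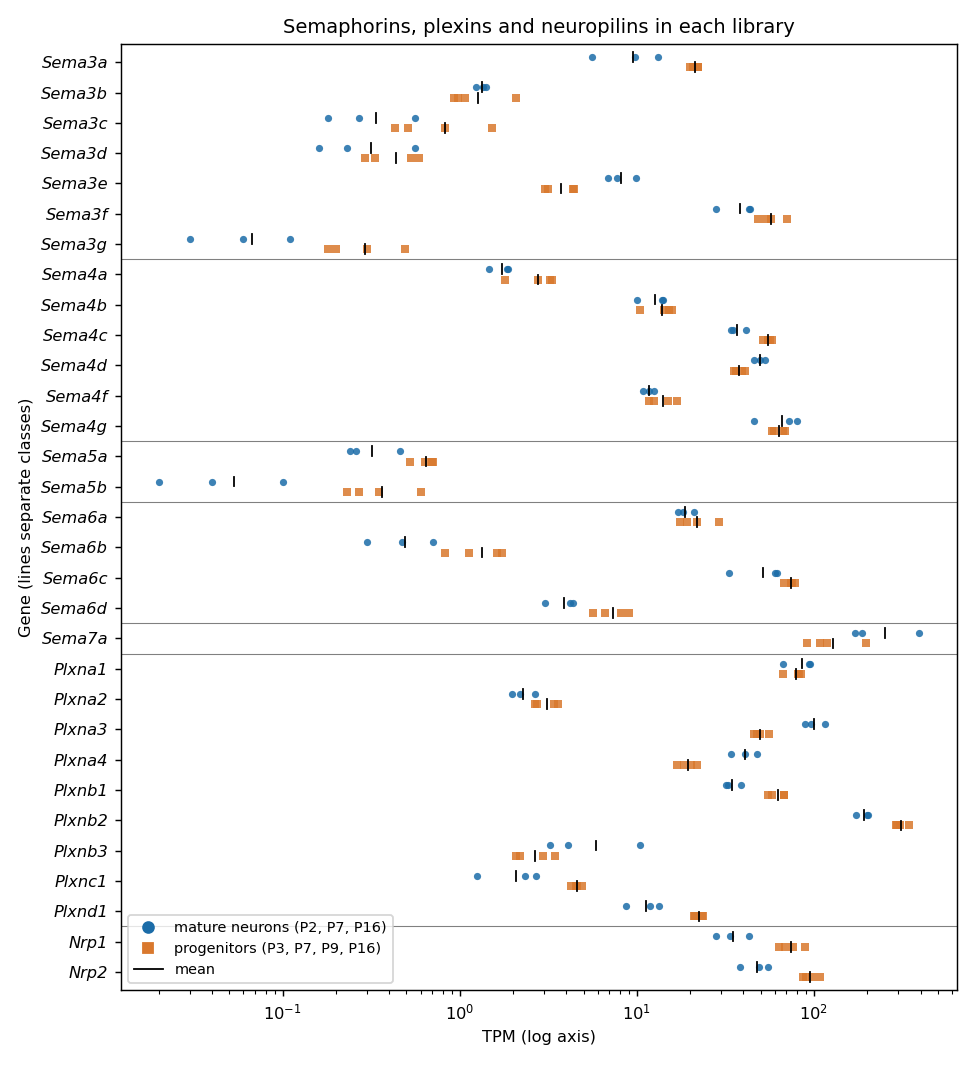
TPM of each of the 31 genes in each library on a log axis, with mature neurons (circles) above progenitors (squares) and a bar at each mean; lines separate the classes. Levels run from 0.02 TPM for Sema5b in mature neurons at P16 to 394 TPM for Sema7a in mature neurons at P16.

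Levels are compared between genes in TPM, a relative abundance scaled for transcript length that sums to the same total in every library. At a mean of 10 TPM or more in either population stood 18 genes, 10 of them semaphorins, and 5 genes stayed below 1 TPM in both. The summed TPM of the 20 semaphorins was 562 ± 80.1 in mature neurons and 506 ± 26.5 in progenitors (SD, n = 3 and n = 4). Plexins summed to 474 ± 53.8 TPM in mature neurons and 552 ± 28.1 TPM in progenitors. Neuropilins summed to 82.3 ± 13.6 TPM in mature neurons and 170 ± 7.63 TPM in progenitors, and of the 3 sums theirs and that of the plexins did not overlap between the populations.

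**Figure D2:**
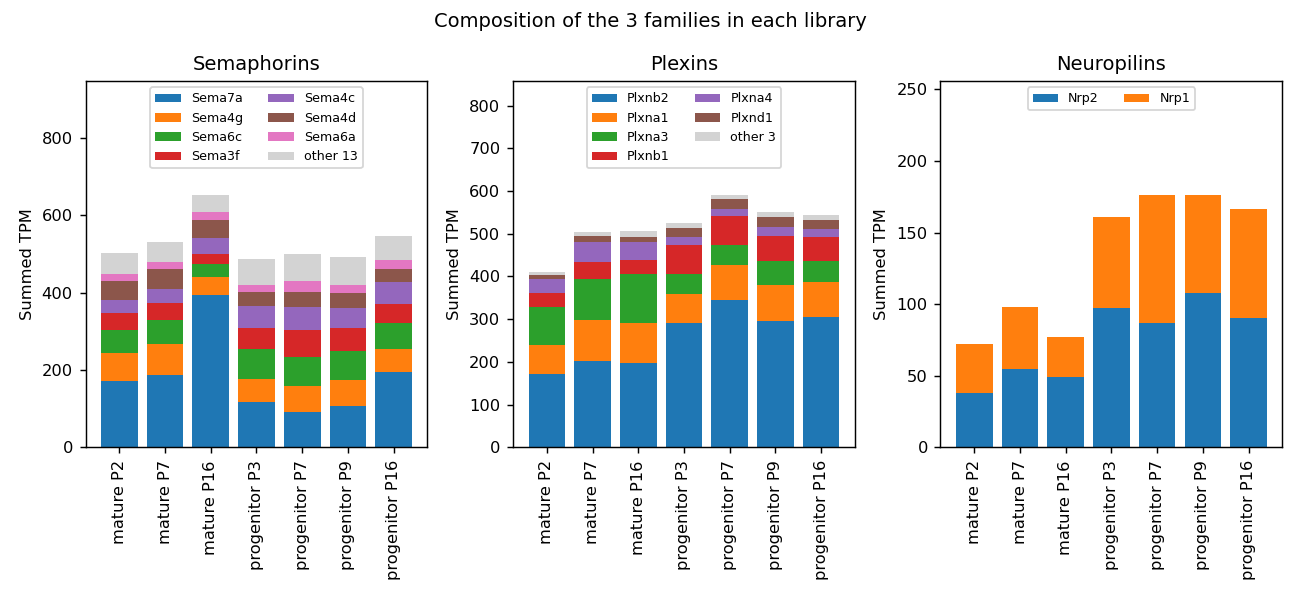
Stacked bars of TPM by gene in each library for the semaphorins, plexins and neuropilins, with mature neuron libraries to the left of progenitor libraries. Sema7a is the largest part of the semaphorin bars and Plxnb2 of the plexin bars in all 7 libraries.

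For 26 of the 31 genes the RefSeq promoter table (GRCm38.p6) holds at least 1 start site, with 37 starts in all. The 250 bases before each start are shown for 3 genes that were higher in mature neurons and whose window ends just before the annotated gene. Capitals mark a match to the E-box CAGCTG, a sequence that basic helix-loop-helix factors bind, which lies 193 bases before the start of Sema7a. Of the 26 genes searched, only Plxnb1 had a match to the palindromic Ebf motif. For this gene 70 bases around that match are shown, and capitals mark it. The other 5 genes of the family had no start in the promoter table and were not searched. The windows are chr9:57939862-57940111 for Sema7a, chrX:74328816-74329065 for Plxna3, chr5:14025026-14025275 for Sema3e and chr9:109095246-109095315 for Plxnb1, all on the plus strand.
Sema7a: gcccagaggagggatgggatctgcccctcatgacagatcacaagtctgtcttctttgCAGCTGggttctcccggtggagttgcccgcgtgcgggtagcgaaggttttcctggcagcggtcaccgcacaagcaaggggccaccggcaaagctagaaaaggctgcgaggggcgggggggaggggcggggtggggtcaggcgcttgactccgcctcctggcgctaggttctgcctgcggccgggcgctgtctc
Plxna3: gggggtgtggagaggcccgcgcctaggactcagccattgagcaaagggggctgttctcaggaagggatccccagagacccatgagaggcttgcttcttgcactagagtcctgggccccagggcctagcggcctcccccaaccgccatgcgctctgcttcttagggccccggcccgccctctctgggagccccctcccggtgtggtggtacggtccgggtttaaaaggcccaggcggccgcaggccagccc
Sema3e: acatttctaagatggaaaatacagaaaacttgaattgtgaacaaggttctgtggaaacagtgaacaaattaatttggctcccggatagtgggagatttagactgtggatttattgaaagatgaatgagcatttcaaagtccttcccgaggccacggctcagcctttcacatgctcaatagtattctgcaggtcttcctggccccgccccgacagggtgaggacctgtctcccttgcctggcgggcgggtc
Plxnb1: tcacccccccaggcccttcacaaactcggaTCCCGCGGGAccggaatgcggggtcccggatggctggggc
Guanine and cytosine made up 66.4% of the Sema7a window, 68.0% of the Plxna3 window and 48.0% of the Sema3e window. On either strand the E-box was found before 6 of the 37 starts (Plxnb3, Sema3g, Sema4d, Sema4g, Sema6c and Sema7a), and 13.0% of all 32851 promoters in the table hold it. These 6 genes were not of one direction in the comparison of the populations. CAGATG, the E-box variant favoured by Neurog and Neurod factors, was found before 2 starts (Sema3c and Sema4a; 14.4% of all promoters). The Ebf motif was found before 1 start (0.779% of all promoters), and the homeodomain motif TAATTA (4.84%) and the cyclic AMP response element TGACGTCA (1.55%) before 0. A match is a description of these letters and not a measured site.

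Among the ligands, Sema7a was the most abundant semaphorin in both populations. Its gene lies on chromosome 9 at 57940112 to 57962865, plus strand (GRCm38). It stood at 171, 188 and 394 TPM in the P2, P7 and P16 mature neurons, against 118, 91.1, 108 and 196 TPM in the P3, P7, P9 and P16 progenitors. In both populations the P16 library was the highest, and the P16 progenitors overlapped the younger mature neurons. It made up 43.2% ± 14.8 of the semaphorin TPM in mature neurons and 25.1% ± 7.63 in progenitors (SD, n = 3 and n = 4). The log2 fold was 1.11 (SE 0.36, edgeR adjusted p = 0.0264). Without the P16 mature neuron library it was 0.59 and was not called (adjusted p = 0.0849), and the call was also lost without the P3 (1.08, adjusted p = 0.0641), P7 (0.97, 0.0688) or P9 progenitor library (1.03, 0.0680).

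Plxnc1, the receptor of Sema7a, was lower in mature neurons and weakly expressed in both populations (chromosome 10, 94790866 to 94944835, minus strand). It stood at 2.33, 2.68 and 1.25 TPM in the P2, P7 and P16 mature neurons, against 4.53, 4.88, 4.24 and 4.62 TPM in the P3, P7, P9 and P16 progenitors. The populations did not overlap, and the P16 mature neurons were the lowest library. Its log2 fold was -1.01 (SE 0.25, edgeR adjusted p = 0.0077).

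Of the 7 class 3 semaphorins 1 rose and 3 fell in mature neurons (57.1% called, against 58.8% of all genes tested). Of the 3 that fell, Sema3c and Sema3g passed the filter only through the progenitors, and their calls are not read as results on their own. Sema3e, which binds Plxnd1 without a neuropilin, had 7.69, 6.84 and 9.84 TPM in the P2, P7 and P16 mature neurons, against 3.03, 3.14, 4.42 and 4.38 TPM in the P3, P7, P9 and P16 progenitors. All mature neuron libraries lay above all progenitor libraries, and its log2 fold of 1.28 (SE 0.19, edgeR adjusted p = 0.000622) was the largest of the 6 higher genes. Plxnd1, its receptor, had 8.66, 13.3 and 11.9 TPM in the P2, P7 and P16 mature neurons, against 21.3, 23.3, 23.6 and 21.1 TPM in the P3, P7, P9 and P16 progenitors. Here all mature neuron libraries lay below all progenitor libraries (log2 fold -1.04, SE 0.20, adjusted p = 0.0022). Plxnd1 is known from endothelial cells. Of 6 tested endothelial and mural markers Pdgfrb (log2 fold 1.68) and Kdr (1.28) rose and Tek (-1.12) fell. The sum of all 9 such markers, most of it Rgs5, was 68.8 to 166 CPM in mature neurons, against 67.2 to 162 CPM in progenitors, and the part of these cells in the Plxnd1 value was not tested. This ligand and its receptor were thus called in opposite directions, as were Sema4d and Plxnb1, Sema7a and Plxnc1, and Sema5a and Plxnb3. The calls of Sema7a and Plxnb3 were lost with some single libraries left out. Other pairs were called in the same direction: Sema3a and Nrp1 were both lower, as were Sema4c and Plxnb2.

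Sema3a, a repellent that binds Nrp1, had 13.2, 9.79 and 5.61 TPM in the P2, P7 and P16 mature neurons, against 22.2, 20.8, 20.1 and 22.3 TPM in the P3, P7, P9 and P16 progenitors. The progenitor libraries lay close together, and every mature neuron library was lower. The log2 fold was -1.05 (SE 0.22, edgeR adjusted p = 0.00389), and it was -0.79 without the P16 mature neuron library and still called. Sema3f, the main ligand of Nrp2, had 43.2, 43.7 and 28.1 TPM in mature neurons, against 53.9, 70, 57.6 and 48.6 TPM in progenitors, in the same order of ages. All TPM values of mature neurons lay below those of progenitors, whereas the CPM values overlapped. On counts its log2 fold was -0.32 (SE 0.15, edgeR adjusted p = 0.0967), which was not called, while limma on log2(TPM + 1) called it lower (-0.59, adjusted p = 0.0180).

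The other class 3 semaphorins were near the lower end of detection. Sema3b, a secreted ligand of neuropilins, stood at 1.33 ± 0.0819 TPM in mature neurons and 1.27 ± 0.546 TPM in progenitors (log2 fold 0.09, SE 0.30). Sema3d was below 0.6 TPM in all libraries, with a log2 fold of -0.62 (SE 0.42) that was not called, although without the P16 mature neuron library it was -1.23 and called (edgeR adjusted p = 0.0183). Sema3c, which acts through both neuropilins and Plxnd1, was called lower (log2 fold -1.41, SE 0.42, edgeR adjusted p = 0.0181), and the call was lost without the P2 mature neuron library (adjusted p = 0.0510). Its level was 0.18, 0.56 and 0.27 TPM in the P2, P7 and P16 mature neurons, against 1.52, 0.51, 0.83 and 0.43 TPM in the P3, P7, P9 and P16 progenitors. These TPM ranges overlapped, while the CPM ranges did not. Sema3c had 14, 18 and 9 counts in the P2, P7 and P16 mature neurons, and it passed the filter only through the progenitors. Sema3g, a neuropilin ligand, had 14 counts summed over the mature neuron libraries and 86 over the progenitor libraries, a ratio per unit of depth of 0.245 (95% exact interval 0.129 to 0.434, counting error only). The counts were 4, 2 and 8 in mature neurons, against 36, 14, 23 and 13 in progenitors, in the same order of ages. It passed the filter only through the progenitors, and its call (edgeR adjusted p = 0.0134) was lost without the P7 mature neuron library (0.0511). Sema3a, Sema3c, Sema3d and Sema3e lie within 5.35 Mb of chromosome 5 (12383385 to 17730268), yet Sema3e was higher, Sema3a was lower and Sema3d was not called. Sema3c was called lower, with the limit of the filter given above.

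Of the 6 class 4 semaphorins, membrane-spanning ligands of mainly B-type plexins, 1 rose and 1 fell (33.3% called, against 58.8% of all genes tested). Sema4d, a ligand of Plxnb1, had 49.6, 52.7 and 45.7 TPM in the P2, P7 and P16 mature neurons, against 36.5, 39.5, 40.8 and 35.2 TPM in the P3, P7, P9 and P16 progenitors. The populations did not overlap (log2 fold 0.45, SE 0.06, edgeR adjusted p = 0.000503). Sema4d is also expressed by leukocytes, whose marker sum was 25.9 to 112 CPM in mature neurons, against 9.67 to 25 CPM in progenitors. With 1 library left out at a time its fold was between 0.41 and 0.48, and the part of leukocytes in it was not tested.

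Sema4c, a ligand of Plxnb2, had 34.2, 35.1 and 41.3 TPM in mature neurons, against 55.2, 57.9, 51.5 and 56.4 TPM in progenitors, in the same order of ages. All mature neuron libraries were lower (log2 fold -0.45, SE 0.08, edgeR adjusted p = 0.00207). Sema4g, also a ligand of Plxnb2, had 71.8, 79.8 and 46.0 TPM in mature neurons, against 59.3, 68.8, 67.0 and 58.1 TPM in progenitors. The P2 and P7 mature neurons were above every progenitor library and the P16 mature neurons below all of them. Its log2 fold was 0.17 (SE 0.15) and was not called, and without the P16 mature neuron library it was 0.36 and called (adjusted p = 0.00582). Sema4b had 14, 14 and 10 TPM in mature neurons, against 15.2, 14.2, 15.8 and 10.4 TPM in progenitors, and the P16 library was the lowest of each population. Sema4f had 11.6, 12.5 and 10.8 TPM in mature neurons, against 11.7, 15.1, 16.8 and 12.4 TPM in progenitors, with overlapping ranges. Neither was called, with log2 folds of -0.02 (SE 0.16) for Sema4b and 0.07 (SE 0.10) for Sema4f, whose sign was negative (-0.24) on log2(TPM + 1). Sema4a, at 1.73 ± 0.229 TPM in mature neurons and 2.78 ± 0.689 TPM in progenitors, was not called (-0.43, SE 0.20) and was called lower without the P16 mature neuron library (-0.60, adjusted p = 0.0313).

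Of the 4 class 6 semaphorins 3 fell in mature neurons and 0 rose (75% called, against 58.8% of all genes tested). In class 5 Sema5a fell. Sema6c, a membrane-bound semaphorin, had 60.3, 61.7 and 33.2 TPM in the P2, P7 and P16 mature neurons, against 78.4, 74.2, 75.1 and 67.7 TPM in the P3, P7, P9 and P16 progenitors. The P16 mature neurons were lowest and the populations did not overlap. The log2 fold was -0.48 (SE 0.16, edgeR adjusted p = 0.0268). Its call was lost without the P3 (adjusted p = 0.0627) or P9 progenitor library (0.0585), while the fold was -0.30 and still called without the P16 mature neurons. Sema6d, a ligand of Plxna1, had 4.21, 4.36 and 3.03 TPM in mature neurons, against 5.68, 8.12, 9.01 and 6.62 TPM in progenitors. All mature neuron libraries were lower (log2 fold -0.82, SE 0.18, adjusted p = 0.00399).

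Sema6a, a ligand of Plxna2 and Plxna4, had 18.3, 17.1 and 21.0 TPM in mature neurons, against 17.4, 29.0, 19.2 and 22.0 TPM in progenitors. These ranges overlapped, and the gene was not called (log2 fold -0.11, SE 0.16). Sema6b, a membrane-bound ligand of A-type plexins, had 0.47, 0.71 and 0.30 TPM in mature neurons, against 1.63, 1.74, 1.13 and 0.82 TPM in progenitors (log2 fold -1.34, SE 0.35, edgeR adjusted p = 0.0102). Sema5a, a ligand of Plxnb3, had 0.46, 0.26 and 0.24 TPM in mature neurons, against 0.71, 0.64, 0.70 and 0.52 TPM in progenitors (log2 fold -0.90, SE 0.20, adjusted p = 0.00521). For both genes every mature neuron library was lower, at levels below 2 TPM throughout. Sema5b had 7 counts over the mature neuron libraries and 57 over the progenitor libraries, a ratio per unit of depth of 0.185 (95% exact interval 0.0712 to 0.407, counting error only). The counts were 3, 3 and 1 in the P2, P7 and P16 mature neurons, against 17, 15, 15 and 10 in the P3, P7, P9 and P16 progenitors, and it passed the filter only through the progenitors. It was not tested when the P3, P7 or P9 progenitor library was left out. Its call is kept in the counts of called genes but is not read as a result on its own.

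**Figure D3:**
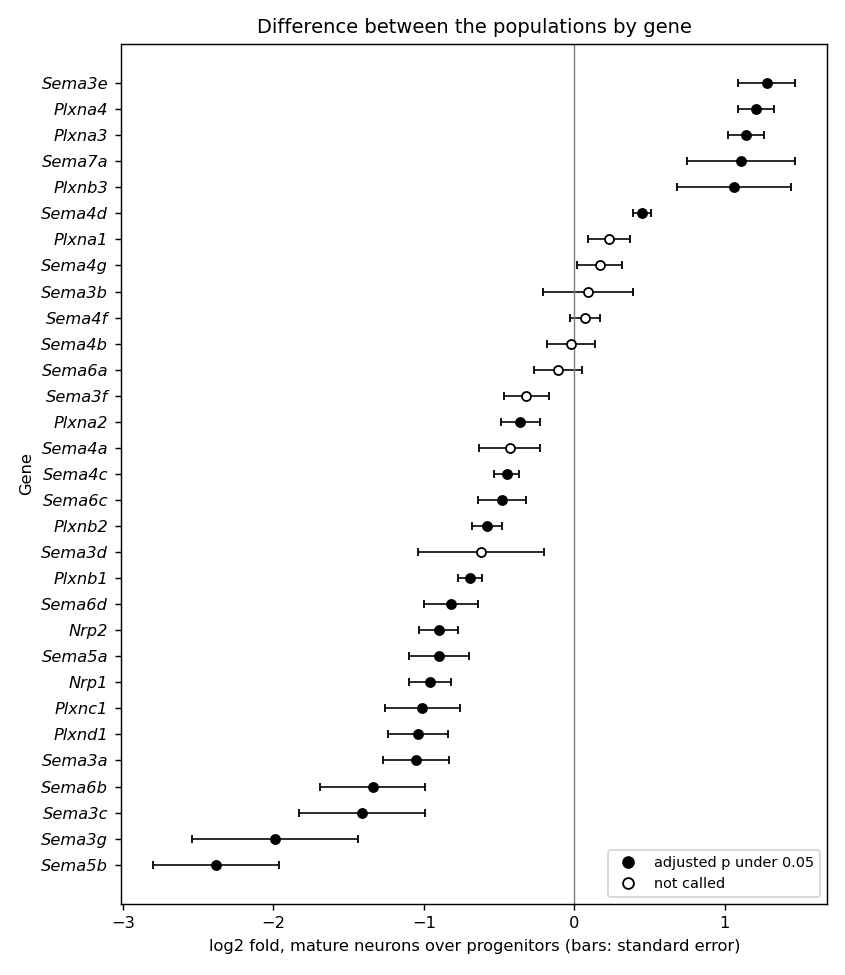
Log2 fold of mature neurons over progenitors with its standard error for each gene, ordered by fold; filled points have an edgeR adjusted p under 0.05. Sema3e, Plxna4, Plxna3, Sema7a, Plxnb3 and Sema4d are the 6 filled points above 0, and Sema5b has the lowest fold.

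Among the receptors, both neuropilins fell in mature neurons. Nrp1, the binding receptor of Sema3a (chromosome 8, 128358604 to 128503363, plus strand), had 33.6, 42.8 and 28.0 TPM in the P2, P7 and P16 mature neurons, against 63.6, 89.2, 68.4 and 76.0 TPM in the P3, P7, P9 and P16 progenitors. Nrp2, the binding receptor of Sema3f (chromosome 1, 62703285 to 62818695, plus strand), had 38.3, 55.0 and 49.1 TPM in mature neurons, against 97.0, 87.0, 108 and 90.6 TPM in progenitors. For both genes every mature neuron library lay below every progenitor library. The log2 fold was -0.96 for Nrp1 (SE 0.14, edgeR adjusted p = 0.000651) and -0.90 for Nrp2 (SE 0.13, adjusted p = 0.000524).

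Within a library, the ratio of Nrp2 to Nrp1 TPM was 1.14, 1.29 and 1.75 in the P2, P7 and P16 mature neurons, against 1.53, 0.975, 1.57 and 1.19 in the P3, P7, P9 and P16 progenitors. The ratios overlapped. At both shared ages, P7 and P16, the ratio was higher in mature neurons, while the P2 mature neurons had a lower ratio than the P3 progenitors. Over all libraries, without regard to age, on the log2 scale the means were 0.45 ± 0.32 in mature neurons and 0.37 ± 0.33 in progenitors (SD, n = 3 and n = 4; difference 0.08, two-sided exact permutation p = 0.771). No test of the age-matched pairs was made. With 3 and 4 libraries the smallest p this test can give is 0.0286.

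The A-type plexins, which signal for neuropilins and class 6 semaphorins, were of mixed direction: Plxna3 and Plxna4 rose, Plxna2 fell and Plxna1 was not called. Plxna3, which pairs with Nrp2 (chromosome X, 74329066 to 74344689, plus strand), had 89.1, 96.0 and 115 TPM in the P2, P7 and P16 mature neurons, against 47.4, 45.9, 55.5 and 49.7 TPM in the P3, P7, P9 and P16 progenitors. Plxna4, which pairs with Nrp1 (chromosome 6, 32144268 to 32588192, minus strand), had 34.0, 47.7 and 41.1 TPM in mature neurons, against 18.5, 17.0, 21.8 and 20.1 TPM in progenitors. Both genes were higher in every mature neuron library than in any progenitor library. The log2 fold was 1.14 for Plxna3 (SE 0.12, edgeR adjusted p = 9.86e-05) and 1.21 for Plxna4 (SE 0.12, adjusted p = 9.29e-05), so these plexins and the neuropilins they pair with were called in opposite directions.

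The Plxna3 to Plxna4 ratio of TPM was 2.62, 2.01 and 2.80 in mature neurons, against 2.57, 2.71, 2.55 and 2.47 in progenitors. The populations overlapped, with log2 means of 1.30 ± 0.25 in mature neurons and 1.36 ± 0.06 in progenitors (difference -0.07, exact permutation p = 0.800). Plxna1 had 67.1, 95.6 and 93.8 TPM in mature neurons, against 66.9, 82.2, 84.0 and 81.7 TPM in progenitors. The youngest library was the lowest in each population. Its log2 fold of 0.23 (SE 0.14, edgeR adjusted p = 0.178) was not called, and without the P2 mature neuron library it was 0.38 and called (0.0194). Plxna2, a receptor of class 6 semaphorins, had 2.19, 2.65 and 1.97 TPM in mature neurons, against 3.41, 2.66, 3.58 and 2.73 TPM in progenitors. The groups touched without overlapping, and the log2 fold was -0.36 (SE 0.13, adjusted p = 0.0422). The call was lost without the P2 (adjusted p = 0.106) or P16 mature neuron library (0.102), or without the P3 (0.0821) or P9 progenitor library (0.102).

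The B-type plexins, receptors of class 4 semaphorins, included the most abundant receptor of the family. Plxnb2 (chromosome 15, 89155549 to 89180788, minus strand) had 172, 203 and 198 TPM in the P2, P7 and P16 mature neurons, against 292, 345, 296 and 305 TPM in the P3, P7, P9 and P16 progenitors. Plxnb1 had 32.8, 38.9 and 32.0 TPM in mature neurons, against 68.2, 68.2, 58.2 and 55.3 TPM in progenitors. Both were lower in every mature neuron library than in any progenitor library. Their log2 folds were -0.58 for Plxnb2 (SE 0.10, edgeR adjusted p = 0.00148) and -0.69 for Plxnb1 (SE 0.08, adjusted p = 0.000207).

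Plxnb3, a receptor of Sema5a, had 3.23, 4.08 and 10.4 TPM in mature neurons, against 2.2, 2.07, 3.45 and 2.95 TPM in progenitors, in the same order of ages. The P16 mature neurons stood apart and the P2 mature neurons were below the P9 progenitors in TPM, while the CPM ranges did not overlap. The log2 fold was 1.06 (SE 0.38, edgeR adjusted p = 0.0420). Without the P16 mature neuron library it was 0.34 and was not called (adjusted p = 0.144). The call was also lost without the P3 (0.0949), P7 (0.1), P9 (0.0685) or P16 progenitor library (0.0612). The P16 mature neuron library has the highest sums of ensheathing glia, leukocyte and fibroblast markers, and their part in this value was not tested.

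The order of the plexins by level therefore differed between the populations. In mature neurons it ran from Plxnb2 (191 ± 16.5 TPM) over Plxna3 (100 ± 13.5), Plxna1 (85.5 ± 16), Plxna4 (40.9 ± 6.83) and Plxnb1 (34.6 ± 3.76) to Plxnd1 (11.3 ± 2.38 TPM; SD, n = 3). In progenitors it ran from Plxnb2 (310 ± 24.2 TPM) over Plxna1 (78.7 ± 7.95), Plxnb1 (62.5 ± 6.70), Plxna3 (49.7 ± 4.21) and Plxnd1 (22.3 ± 1.33) to Plxna4 (19.3 ± 2.08 TPM; SD, n = 4). Among neighbours in this order the ranges over libraries overlapped for Plxna3 and Plxna1, and for Plxna4 and Plxnb1, in mature neurons. In progenitors they overlapped for Plxna1 and Plxnb1, for Plxnb1 and Plxna3, and for Plxnd1 and Plxna4. Plxnb3, Plxna2 and Plxnc1 were the 3 lowest in both. Plxna3 made up 21.2% ± 1.89 of the plexin TPM in mature neurons and 9.01% ± 0.950 in progenitors, and Plxnb2 40.4% ± 1.32 in mature neurons and 56.0% ± 1.88 in progenitors.

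Age was tested with 1 common slope, given as the log2 change for each doubling of the postnatal day. None of the 31 genes was called for it, and 0 of all 17975 genes tested were (edgeR, adjusted p under 0.05; 0% called). At an unadjusted p under 0.05 stood 7 of the 31 genes, and 20.8% of all genes tested. DESeq2 called 2 of the 29 family genes to which it gave an adjusted p, and 1523 of 15535 genes in all, while limma on log2(TPM + 1) called 0 of 31. The lowest edgeR adjusted p belonged to Plxna1 (slope 0.16, SE 0.04, adjusted p = 0.0933), Plxnb3 (0.40, SE 0.12, adjusted p = 0.115) and Sema7a (0.34, SE 0.11, adjusted p = 0.139). Plxna1 and Plxnb3 were those that DESeq2 called. Without the P16 mature neuron library the slope was 0.15 for Plxnb3 and 0.20 for Sema7a. In simulated data the edgeR age test recovered 29.3% of changes of 1 log2 unit over the age range, so many such changes could be missed. The simulated noise was set from a fit without age, in which real age changes count as noise. The share therefore need not hold for the real data.

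**Figure D4:**
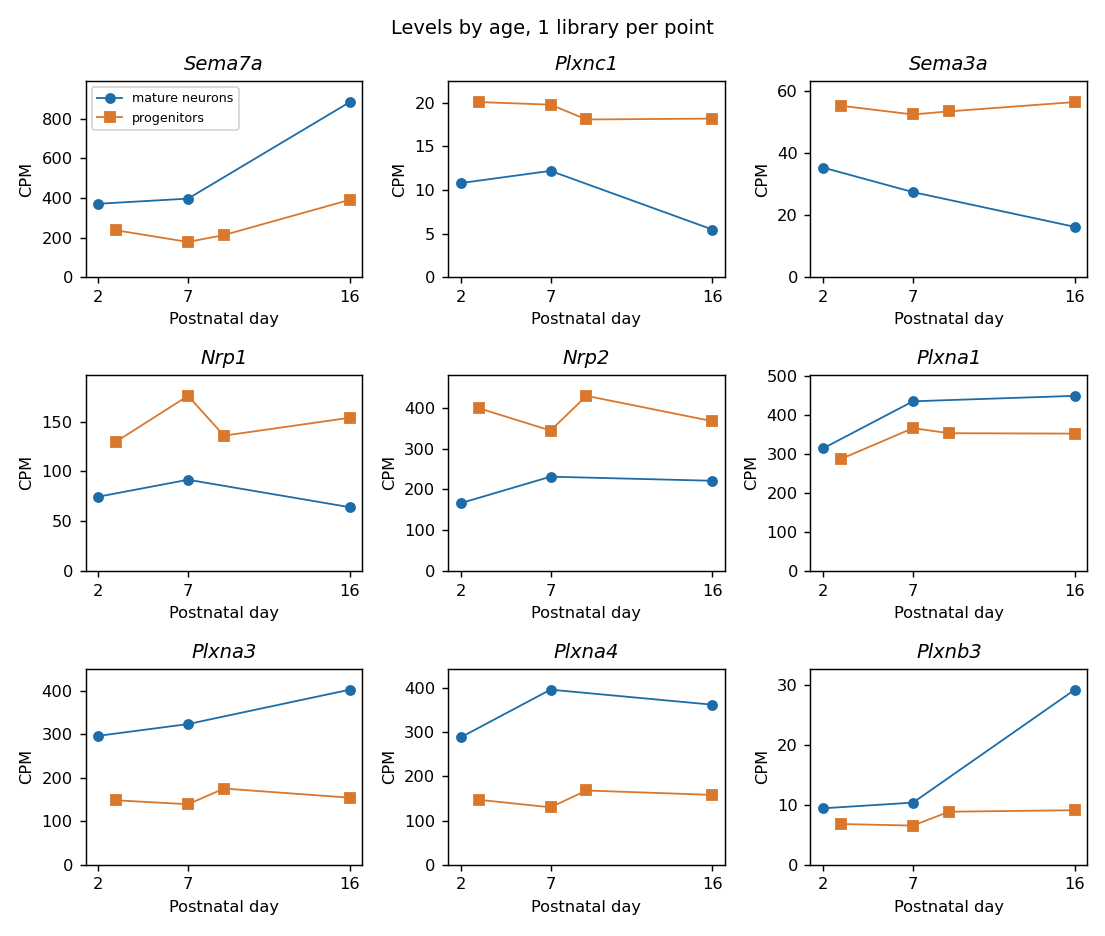
CPM against postnatal day for 9 genes, with 1 library per point, mature neurons as circles and progenitors as squares, each panel starting at 0. Sema7a is highest at P16 in both populations (885 CPM in mature neurons, against 391 CPM in progenitors), while Sema3a is lowest in mature neurons at P16 (16.2 CPM) with progenitors between 52.4 and 56.4 CPM.

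The slopes were also compared between the populations, and 0 of the 31 genes and 0 of 17975 genes were called (edgeR; 0% called). At an unadjusted p under 0.05 stood 2 of the 31 genes and 5.98% of all genes, while limma called 0 of the 31 and DESeq2 0 of 23, with 11 of 10657 genes in all. Sema3a came first in the order of the unadjusted p. Its CPM was 35.3, 27.4 and 16.2 in the P2, P7 and P16 mature neurons, against 55.2, 52.4, 53.4 and 56.4 in the P3, P7, P9 and P16 progenitors, and its slope in mature neurons differed by -0.37 from that in progenitors (SE 0.10, edgeR adjusted p = 0.806). The next were Plxnb1 (0.16, SE 0.06) and Plxnd1 (0.30, SE 0.14), both with an edgeR adjusted p of 0.806. The sizes of these differences depended on single libraries, and for Plxnd1 the sign did too. Without the P2 mature neuron library they were -0.65 for Sema3a, 0.08 for Plxnb1 and -0.02 for Plxnd1, and without the P16 mature neuron library -0.21 for Sema3a and 0.49 for Plxnd1. That of Plxnd1 was 0.56 without the P3 and 0.20 without the P16 progenitor library. In data simulated with the same noise the edgeR test of slope differences recovered 0% of changes of 1 log2 unit over the age range. It thus cannot show that slopes are alike.

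The other genes of the pathway were taken from lists of coreceptors, GTPases, effectors and proteases. Of 67 such genes 65 were tested, and 10 rose and 26 fell in mature neurons, with a median log2 fold of -0.16. Over all genes tested 28.8% were called higher and 30.0% lower, with a median of 0.01.

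Of 24 kinases, cytoskeletal effectors and adaptors 14 fell and 1 rose, with a median log2 fold of -0.41. Of all genes tested 30.0% were called lower and 28.8% higher. Those of the list with the smallest p are named here. Dpysl5 and Crmp1 of this list are also immature neuron markers, of which 7 of 8 fell, and the part of immature neurons in these values was not tested. Of the collapsin response mediators, which relay Sema3a signals to microtubules, Dpysl5 stood at 225 ± 39.8 CPM in mature neurons, against 895 ± 57.4 CPM in progenitors (log2 fold -1.99, SE 0.13, edgeR adjusted p = 1.39e-05) and Dpysl3 stood at 354 ± 116 CPM in mature neurons, against 3100 ± 238 CPM in progenitors (-3.13, SE 0.25). Fyn, a kinase that acts in Sema3a signalling, averaged 36.6 ± 6.94 CPM in mature neurons, against 127 ± 6.74 CPM in progenitors (-1.80, SE 0.13). Cdk5r1, the activator of the kinase Cdk5, had a log2 fold of -1.82 (SE 0.12), whereas that of Cdk5 was -0.08 (SE 0.06) and not called. The called gene in the other direction was Pak1, a kinase downstream of Rac (0.33, SE 0.07).

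Of 19 GTPases and regulators 3 rose, 4 fell and 12 were not called, whereas 58.8% of all genes tested were called. Farp2, an exchange factor bound by A-type plexins, rose by 1.13 on the log2 scale (SE 0.16, edgeR adjusted p = 0.000453), and Arhgef12, an exchange factor bound by B-type plexins, by 0.80 (SE 0.14). Rhod, a GTPase that binds plexins, rose as well (0.81, SE 0.30). Mras (-0.87, SE 0.07) and Rras2 (-0.90, SE 0.15), of the Ras family on which plexins act, fell, as did Rac1 (-0.47, SE 0.08) and Rhoa (-0.16, SE 0.06).

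Of 14 tested coreceptors and other receptors 4 rose and 6 fell, and of all genes tested 28.8% were called higher and 30.0% lower. Cntn2, an adhesion molecule of growing axons, had 3.93 ± 1.70 CPM in mature neurons, against 35.8 ± 7.57 CPM in progenitors (log2 fold -3.18, SE 0.32, edgeR adjusted p = 8.58e-05). Ptk7 (-2.02, SE 0.37), a plexin coreceptor, Mst1r (-1.95, SE 0.33), a receptor kinase with a semaphorin domain, and Itgb1 (-0.74, SE 0.10), an integrin subunit used by Sema7a, fell too. The 4 higher genes were below 4 CPM on average in both populations: Trem2 (2.33, SE 0.65) and Tyrobp (1.38, SE 0.46), which act with Plxna1 in myeloid cells, Timd2 (1.19, SE 0.33), a Sema4a receptor, and Kdr (1.28, SE 0.45), an endothelial receptor that is also on the endothelial marker list. Tyrobp is on the leukocyte marker list, of whose 10 genes 8 rose and 0 fell, and the part of leukocytes in these values was not tested. Of the 8 proteases, Pcsk6 (1.49, SE 0.17) and Pcsk7 (0.59, SE 0.08), proprotein convertases of the furin family, rose, Adam10 (-0.52, SE 0.11) and Mmp14 (-0.93, SE 0.27), which shed membrane proteins, fell, and Furin, which cleaves class 3 semaphorins, was not called (0.05, SE 0.11).

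**Figure D5:**
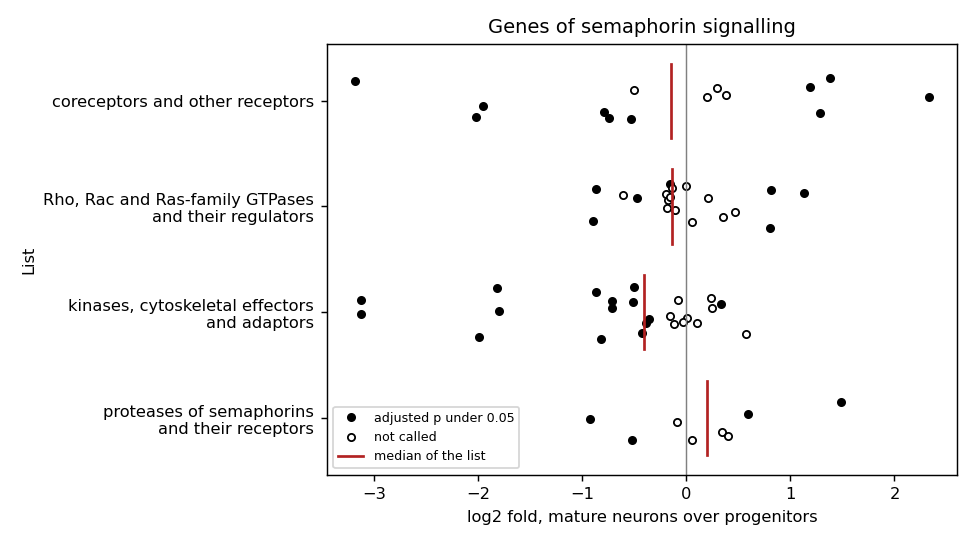
Log2 fold of mature neurons over progenitors for each tested gene of the 4 signalling lists, with filled points for an edgeR adjusted p under 0.05 and a line at each median; the vertical scatter within a list carries no value. The effector list has the lowest median, -0.41, and the protease list the highest, 0.19.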

How the data were processed

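Per the labels' protocols, TRIzol was used to extract RNA from sorted cells, and poly(A) RNA went into stranded TruSeq libraries. The build mm10, bcl2fastq 2.18, STAR 2.6.1c and RSEM are named per the submitters' processing notes. Not given in the sources used here: annotation release, strand setting, handling of multi-mapped reads. Deposited by the authors were whole-number read counts per gene and a table of TPM values, scaled for transcript length to 1 total per library. The column names of both tables have "neg" where the sample labels have a hyphen. It was read as a replaced hyphen and not as GFP-negative cells, a reading that no source states. Entries of the count table that name no gene held 23.53% to 27.22% of a library and were left out.

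Counts were tested with edgeR 4.0.16 (R 4.3.3; TMM, filterByExpr, quasi-likelihood) over all genes with Benjamini-Hochberg adjustment at 0.05. Standard errors are the fold over the root of F, and CPM use TMM factors. Models held population, then population and log2 postnatal day, then their interaction (5, 4 and 3 residual degrees of freedom). The scripts were tested on simulated data, in which far fewer genes changed than were called here between the populations. The simulated noise came from the population model, which has no age term, so real age changes count as noise in it. Changes of 1 log2 unit (over the whole age range for slopes) were recovered for 49% of genes by the population test. The age test recovered 29.3% and the test of slope differences 0%. For changes of 2 log2 units the shares were 89.9%, 71.4% and 20.2%. Genes that were not called may still differ. Alternatives used DESeq2 1.42.0 and limma 3.58.1 on log2(TPM + 1) or log2(TPM + 0.1).

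The members and lists were chosen with earlier results of these data known. Values in every library are given for members called or at a mean of at least 10 TPM. From each signalling list up to 4 called genes per direction, with the smallest p, are named. Positions come from GENCODE M21 (GRCm38), promoters from RefSeq (GRCm38.p6); 54495 of the 54532 identifiers matched GENCODE. Opposite-strand genes share exon bases with Plxna1, Plxna4, Plxnb1 and Sema4c, each at no more than 4.35 CPM in any library. Same-strand genes share exon bases with Nrp1 (Mir1903, 80 bases), Plxnc1 (Gm48718, 115 bases) and Sema4a (Mir7011, 73 bases). Mir1903 had 0 counts in every library but up to 36.17 TPM, and its part in the Nrp1 TPM was not tested.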

Additional observations from a re-analysis of the deposited data

How the results depend on the processing

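Of the 22 called genes, 16 kept their call and direction under all alternatives that tested them (15, or fewer for the sparsest genes), and Sema7a, Plxnb3, Plxna2, Sema3c, Sema3g and Sema6c lost it under at least 1. Of the 9 genes not called, 5 were called under at least 1 alternative. The number called was 17 to 22 with 1 library left out at a time, and that of signalling genes 32 to 36. Over all genes it ran from 9365 of 17720 to 10772 of 18382 tested. Scaling to library totals alone moved the median log2 fold of all genes from 0.01 to -0.13 and the share of called genes that were higher from 49% to 38.2%; in the family it gave 5 higher and 18 lower genes, and limma on log2(TPM + 1) gave 5 and 15. Age slopes, with 0 genes called, gave 2 with DESeq2 and 3 with postnatal day on a linear scale (Plxnb3 and Sema7a up, Sema3f down). With 1 library left out they gave 0 to 1, and without the P7 mature neuron library Plxnb3 was called (0.40, edgeR adjusted p = 0.0473). Over all genes DESeq2 called 1523 of 15535, the linear scale 1124 of 17975 and the fit without the P7 mature neuron library 986 of 18436. Calls were thus gained outside the family too. The cause was not tested.

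Some genes that were not called changed sign. Sema3b had a log2 fold of -0.05 with library totals and -0.09 to 0.27 with 1 library left out. Sema4f had -0.08 with library totals, -0.24 on log2(TPM + 1) and -0.25 on log2(TPM + 0.1). With 1 library left out Sema4b ran from -0.15 to 0.10, Sema6a from -0.24 to 0.01, the difference of age slopes of Plxnd1 from -0.02 to 0.56, the Nrp2 to Nrp1 ratio difference from -0.09 to 0.22 and that of Plxna3 to Plxna4 from -0.16 to 0.07.

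The labels give no replicate numbers, and the populations share the ages P7 and P16. With these 4 libraries and postnatal day as a replicate block 20 genes of the family were called, and 9331 of all 17908 genes tested. Plxna2 (-0.19), Sema3c (-0.86) and Sema3g (-1.29) were lost, Plxna1 (0.31) and Sema3f (-0.34) were gained, Sema5b was not tested and Sema4b had 0.10. Nrp1 had -1.09 and Nrp2 -0.64, both still called, and the Nrp2 to Nrp1 ratio difference was 0.48, with no test. Over the tested genes the P16 to P7 differences of the populations had a correlation of 0.43. Depth limits Sema3c, Sema3d, Sema3g, Sema5a and Sema5b, all below 1 TPM on average.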
